A study of Mus musculus with 39 samples.

Results

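Bin1, Picalm, Cd2ap, Rin3, Ptk2b, Fermt2 and Abca7 are mouse orthologs of human genes that lie at risk loci for late-onset Alzheimer disease, and most of their products act in endocytosis, endosome traffic or cell adhesion. These 7 genes were taken by symbol from the 50559 genes of each of 2 count tables, 1 for the basolateral amygdala (BLA) and 1 for the hippocampus. All 7 were found in both tables, and all 7 passed the filter on low counts in both tissues.

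In clathrin-mediated endocytosis, adaptor proteins gather cargo and clathrin at the plasma membrane, curved-membrane proteins shape the bud, and actin helps to pull it in. The small GTPase RAB5 then directs the vesicle to the early endosome, where the amyloid precursor protein can meet the protease that starts its cleavage to amyloid-β. Integrin adhesion uses overlapping machinery, in which kindlins switch integrins on and focal adhesion kinases signal from them; in forebrain neurons the same kinases act at synapses.

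The groups were, in each tissue, trained APP/Tau, naive APP/Tau, trained control and naive control mice, all female and 9 months old. APP/Tau mice carry a human APP transgene with the Swedish and Indiana mutations (APPSw,Ind, line J9) and a human tau transgene with the P301S mutation (line PS19), both on a C57BL/6 background, while controls carry neither. Every mouse, controls included, also carries the CaMKIIα-Cre driver, which is active in glutamatergic forebrain neurons after birth, and 1 RiboTag allele, a tagged ribosomal protein. Only the lysate before ribosome pull-down was sequenced, so RNA of all cell types in the tissue was measured. Trained mice heard a tone that ended with a foot shock of 0.8 mA and were killed 1 hour later. The BLA held 4 trained and 5 naive APP/Tau mice and 5 trained and 5 naive controls, and the hippocampus held 4 trained and 5 naive APP/Tau mice and 6 trained and 5 naive controls, with 1 mouse per library and 39 libraries in all. The labels do not say whether BLA and hippocampal libraries came from the same mice, so the number of mice may be below 39. BLA tissue came from punches of 1 mm in sections of 300 µm, so neighbouring nuclei can be included, and the hippocampus was cut out with a scalpel.

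Libraries held 50.3 to 74.3 M counts (BLA) or 92.1 to 128 M counts (hippocampus). The genotype labels were checked with Prnp, App and Mapt. The promoter of Prnp drives the tau transgene of line PS19, and Prnp ranged from 1070 to 1683 CPM (counts scaled to a common library size) in BLA APP/Tau libraries, against 743 to 1054 CPM in BLA controls, and from 1588 to 2231 CPM in hippocampal APP/Tau libraries, against 707 to 964 CPM in hippocampal controls. App was 2251 to 2695 CPM in APP/Tau and 1685 to 2008 CPM in control hippocampi, but in the BLA its median was 1890 CPM in APP/Tau libraries and 2165 CPM in controls, with overlapping ranges. Mapt was 594 to 660 CPM in APP/Tau and 525 to 604 CPM in control hippocampi, and overlapped in the BLA, at 529 to 725 CPM in APP/Tau libraries and 524 to 683 CPM in controls. Thus Prnp alone of the 3 separated the genotypes in both tissues. Several libraries stood apart. In the hippocampus, 3 APP/Tau libraries (trained 1, trained 3 and naive 5) had summed levels of 14 microglial markers, all of them detected, of 1482, 1417 and 1860 CPM, over 2 times the tissue median, whereas the 11 controls had 416 to 489 CPM; the same 3 libraries had the lowest sums of 10 neuronal markers, 7826, 9705 and 8076 CPM, against 11884 to 13552 CPM in controls. They also stood highest in the sums of 10 astrocyte markers, at 9711, 8535 and 10369 CPM, against 4138 to 4672 CPM in controls, and of 10 oligodendrocyte markers, at 9658, 8560 and 10616 CPM, against 4343 to 6986 CPM in controls. They are called microglia-rich here after the list that set them apart, and which of the glial types moves with a gene cannot be told apart in them. In the BLA, the library of APP/Tau trained 1 had a microglial sum of 1112 CPM, against 392 to 508 CPM in controls. Markers of striatum and central amygdala, nuclei beside the BLA, were over 2 times the tissue median in 3 BLA libraries (APP/Tau naive 2, APP/Tau trained 4 and control trained 2), at 5325, 3593 and 4569 CPM. In 2 hippocampal controls (trained 1 and naive 1), 18S ribosomal RNA made up 1.99% and 5.18% of counts, against less than 1% in every other library. Neuronal markers of the labelled tissue were present throughout: 8 markers of BLA neurons summed to 503 to 1223 CPM in BLA libraries and 480 to 751 CPM in hippocampal ones, and 10 markers of hippocampal neurons to 446 to 641 CPM in BLA libraries and 356 to 845 CPM in hippocampal ones. The ranges of both lists overlap between the tissues, so these sums alone do not tell the tissues apart. In whole tissue, fewer cells of a type and less RNA per cell cannot be told apart.

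The promoters of 5 of the 7 genes were found in RefSeq (build GRCm38.p6), and 2 are shown: that of Rin3 because Rin3 was the gene that changed most with genotype, and that of Picalm because it carries a pair of CLEAR palindromes, the element that TFEB, a master regulator of lysosomal genes, binds. Each sequence starts 250 bases before a RefSeq transcript start and ends 10 bases after the gene start of GENCODE, which for Rin3 lies upstream of that RefSeq start. Capitals mark the GC box (GGGCGG, or CCGCCC on the other strand) in Rin3 and, in Picalm, the palindrome, which is the E-box CACGTG with GT before it and AC after it.
Rin3, chr12:102282824-102283057, plus strand: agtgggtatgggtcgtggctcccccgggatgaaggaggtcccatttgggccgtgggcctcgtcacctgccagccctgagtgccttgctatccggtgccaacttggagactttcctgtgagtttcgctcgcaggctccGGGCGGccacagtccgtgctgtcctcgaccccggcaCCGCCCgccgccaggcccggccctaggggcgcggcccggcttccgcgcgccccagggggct
Picalm, chr7:90129963-90130222, plus strand: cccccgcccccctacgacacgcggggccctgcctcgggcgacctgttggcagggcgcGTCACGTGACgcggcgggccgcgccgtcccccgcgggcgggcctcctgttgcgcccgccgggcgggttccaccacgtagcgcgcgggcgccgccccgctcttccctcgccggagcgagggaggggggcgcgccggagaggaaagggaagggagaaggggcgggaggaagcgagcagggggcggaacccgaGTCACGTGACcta
Over the 32851 mouse promoters searched in the same way on both strands, in windows of 260 bases, the CLEAR palindrome was found in 93, or 0.283%, and Picalm was the 1 promoter with 2 copies; its second copy spans the annotated start. The E-box alone, which the palindrome contains, was in 6.34% of promoters. The GC box was in 33.4% of promoters and at least 2 times in 17.5%. Picalm held 6, Fermt2 5, Rin3 2, Abca7 1 and Cd2ap none. Another Rin3 promoter window, which starts downstream at 102283391 and is not shown, held 1. The PU.1 core GAGGAAG, bound by the myeloid factor that Spi1 encodes, was in 11.1% of promoters and in the promoter of Picalm alone among the 5. The AP-1 site TGACTCA, the target of activity-induced factors of the FOS family, was in 4.65% of promoters and in none of the 5.

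Per length of annotated exon, Ptk2b and Bin1 were by far the most abundant of the 7 and Rin3 the least. Levels per kilobase of exon, on the scale of a joint fit of both tissues, were 73.1 CPM in the BLA and 114 CPM in the hippocampus for Ptk2b, and 61.7 and 59.8 CPM for Bin1, in the same order of tissues. Fermt2 followed with 13.2 CPM per kilobase in the BLA and 15.2 in the hippocampus, and Picalm with 7.54 in the BLA and 10.0 in the hippocampus. Abca7 had 1.94 in the BLA and 2.35 in the hippocampus, Cd2ap 1.07 and 1.64, and Rin3 0.455 and 0.474 CPM per kilobase, again BLA and then hippocampus. The order was the same in both tissues. Exon length was taken from GENCODE on GRCm38 and not from the annotation used for counting, and each gene's count sums its isoforms, which differ between cell types for Bin1. The length was the union of all annotated exons of a gene. It was 15864 bases for Cd2ap and 15732 for Picalm, against 6752 for Abca7 and 5191 for Fermt2. The order of these genes can depend on that choice. Even the least abundant member was well counted: Rin3 had 95 to 403 counts in a BLA library and 222 to 765 in a hippocampal one. Bin1 lies on chromosome 18, Picalm on 7, Cd2ap on 17, Ptk2b and Fermt2 on 14, Rin3 on 12 and Abca7 on 10. Bin1 overlaps A830052D11Rik on the opposite strand, whose mean hippocampal count of 88.4 compares with 27284 for Bin1; whether the counting used strand is not given in the sources used here.

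The first comparison asks how the 2 transgenes together changed these genes in the hippocampus, averaged over naive and trained mice. Rin3 and Bin1 rose in APP/Tau mice, Rin3 by 44.5% and Bin1 by 8.30%, and the other 5 did not pass the test (edgeR quasi-likelihood F test, Benjamini-Hochberg adjustment over 25791 genes, threshold adjusted p < 0.05). So 2 of 7 members rose and none fell, beside 7.27% of all tested genes that rose and 3.80% that fell (11.1% in either direction). The median log2 fold change of the 7 was 0.11, against -0.0013 over all tested genes. No member separated the 9 APP/Tau from the 11 control libraries without overlap, beside 0.403% of genes that did so with higher and 0.0698% with lower values in APP/Tau mice.

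**Figure D1:**
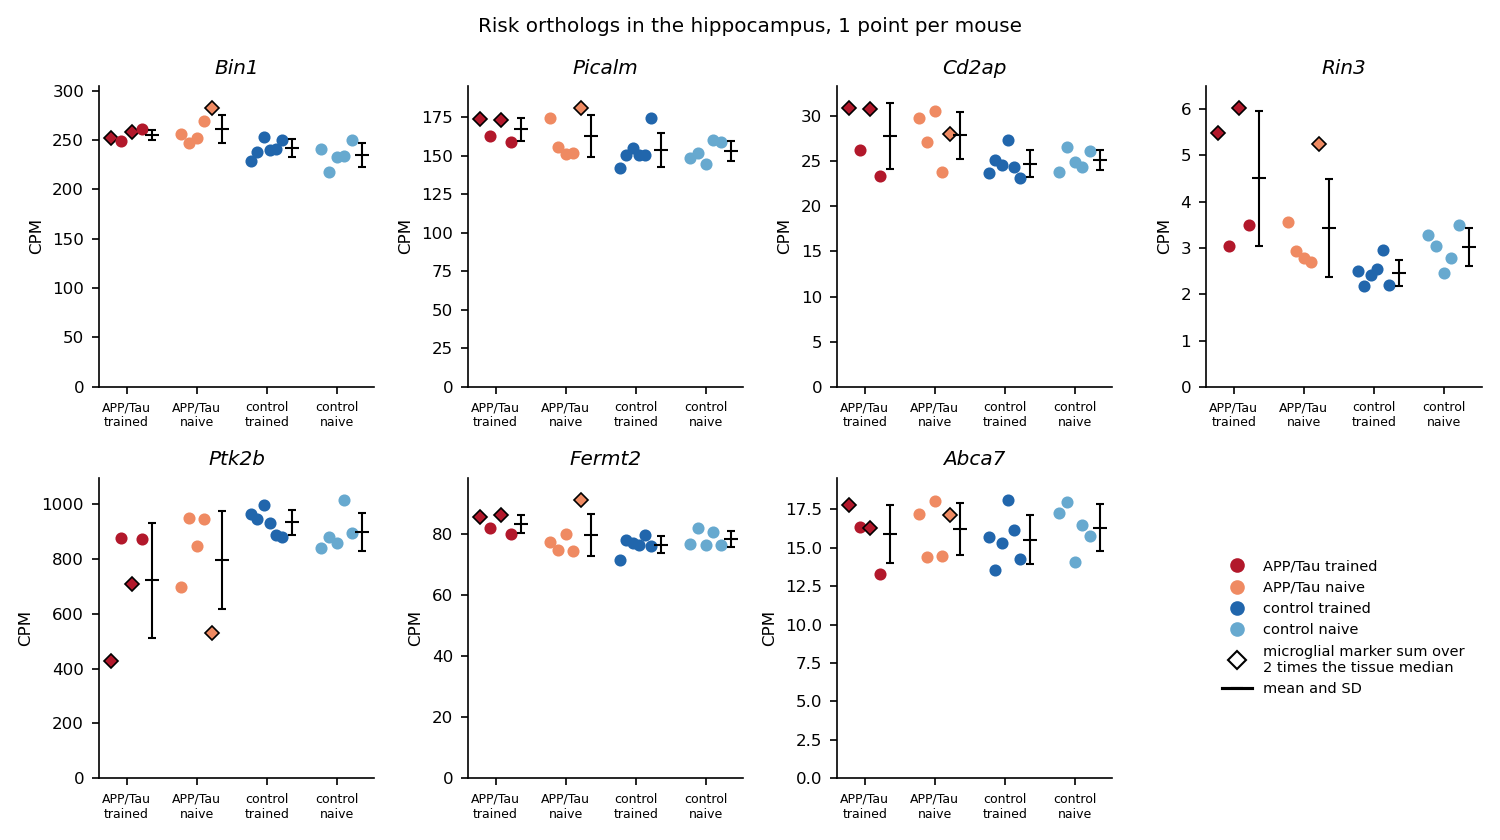
Level of each of the 7 genes in the hippocampus, in CPM on a linear axis from 0, with 1 point per mouse; black bars give the mean and SD of each group of 4 to 6 mice, and diamonds mark the 3 APP/Tau libraries with over 2 times the median microglial marker sum. The 3 highest Rin3 values and the 2 lowest Ptk2b values are in libraries marked by diamonds, while Bin1 is above the control median of 240.2 CPM in all 9 APP/Tau libraries.

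Rin3 encodes an exchange factor that loads GTP onto RAB5 and that, in human cells, binds BIN1 and CD2AP. Its levels were 5.48, 3.04, 6.02 and 3.49 CPM in trained APP/Tau mice 1 to 4 and 3.56, 2.94, 2.78, 2.69 and 5.24 CPM in naive APP/Tau mice 1 to 5. Trained controls lay between 2.18 and 2.95 CPM with a median of 2.46 CPM, and naive controls had 3.28, 3.05, 2.46, 2.77 and 3.51 CPM. All 9 APP/Tau libraries were above the control median, and 4 were above the highest control; those with the 3 highest levels were the 3 microglia-rich libraries, so the groups overlapped in the others. Means were 3.92 ± 1.30 CPM in APP/Tau mice (SD, n = 9) and 2.72 ± 0.43 CPM in controls (SD, n = 11). The averaged log2 fold change of Rin3 was 0.53 ± 0.14 (SE; adjusted p = 0.0207, edgeR). Without the 3 microglia-rich libraries it was 0.19 ± 0.10 (adjusted p = 0.505), and without APP/Tau trained 1 or trained 3 alone the adjusted p was 0.0630 or 0.0688. With the mean log2 level of the microglial markers as a covariate, which itself differs between the genotypes, the sign turned, to -0.14 ± 0.13 on the log2 scale. The part of microglia in the rise was not tested beyond these fits, and that of astrocytes and oligodendrocytes, whose sums are highest in the same 3 libraries, was not tested.

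Bin1 encodes a protein of the amphiphysin family with a BAR domain, which binds and bends membranes. It had 252, 249, 258 and 261 CPM in trained APP/Tau mice 1 to 4 and 256, 247, 252, 269 and 282 CPM in naive APP/Tau mice 1 to 5. In trained controls it ranged from 228 to 253 CPM with a median of 240.5 CPM, and naive controls had 241, 217, 232, 234 and 250 CPM. The ranges of the genotypes touched only between 247 and 253 CPM, and 5 of the 9 APP/Tau libraries were above the highest control. Means were 258 ± 11 CPM in APP/Tau mice (SD, n = 9) and 239 ± 10 CPM in controls (SD, n = 11), and the averaged log2 fold change was 0.12 ± 0.03 (SE; adjusted p = 0.0322, edgeR). Without the microglia-rich libraries the log2 fold change of Bin1 was 0.10 ± 0.04 and no longer passed the test (adjusted p = 0.261). The call was also lost when any 1 of 5 libraries was left out (APP/Tau trained 1, trained 3 and naive 5, control naive 2 and naive 3), with adjusted p of at most 0.0672 and log2 fold changes of 0.10 to 0.12, and without the 2 libraries rich in 18S RNA (0.11 ± 0.04, adjusted p = 0.0647).

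Cd2ap and Picalm leaned the same way without passing. Cd2ap encodes a scaffold that binds actin-capping protein and the ubiquitin ligase CBL. It had 30.9, 26.2, 30.8 and 23.4 CPM in trained and 29.7, 27.1, 30.5, 23.8 and 28.0 CPM in naive APP/Tau mice, against 23.1 to 27.4 CPM in the 11 controls, and 5 of 9 APP/Tau libraries were above every control. The averaged log2 fold change of Cd2ap was 0.16 ± 0.05 (SE; adjusted p = 0.0631, edgeR). DESeq2, which called more of all genes in this effect, placed Cd2ap just past the threshold (adjusted p = 0.0417). Picalm, whose product recruits clathrin to membranes rich in phosphoinositides, averaged 165 ± 11 CPM in APP/Tau mice (SD, n = 9) and 153 ± 9 CPM in controls (SD, n = 11). All 9 APP/Tau libraries of Picalm were above the control median, but 1 control, trained 6, reached 174 CPM, and the log2 fold change of 0.11 ± 0.04 had an adjusted p of 0.110 (edgeR). Without the microglia-rich libraries the log2 fold changes were 0.07 ± 0.06 for Cd2ap and 0.05 ± 0.04 for Picalm.

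Neither adhesion gene, Ptk2b or Fermt2, passed, and their log2 fold changes had opposite signs. Ptk2b encodes PYK2, a calcium-activated kinase of the focal adhesion kinase family that is abundant in forebrain excitatory neurons. It had 427, 877, 709 and 873 CPM in trained APP/Tau mice 1 to 4 and 699, 951, 846, 946 and 532 CPM in naive APP/Tau mice 1 to 5, against 879 to 998 CPM in trained controls (median 939 CPM) and 841, 881, 857, 1016 and 894 CPM in naive controls. The spread was wide in APP/Tau mice, with 4 of 9 libraries below the lowest control (trained 1, naive 5, naive 1 and trained 3) and the other 5 within the control range. The coefficient of variation was 24.3% in APP/Tau mice and 6.27% in controls, and the averaged log2 fold change was -0.27 ± 0.11 (SE; adjusted p = 0.116, edgeR). Ptk2b followed the markers of hippocampal neurons: their sum was 356, 440, 550 and 580 CPM in the 4 low libraries, in the order of trained 1, naive 5, naive 1 and trained 3, and 694 to 845 CPM in controls. The ratio of Ptk2b to that sum ran from 1.20 to 1.31 in APP/Tau libraries and from 1.18 to 1.27 in controls, so the ranges overlapped. Without the microglia-rich libraries, all of which are among the 4 low ones, the log2 fold change of Ptk2b was -0.08 ± 0.06. The part of neurons or of glia in the Ptk2b difference was not tested.

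Fermt2 encodes kindlin-2, which activates integrins. It ranged from 74.6 to 91.3 CPM in APP/Tau mice and from 71.7 to 82.1 CPM in controls, and its log2 fold change of 0.07 ± 0.04 did not pass (adjusted p = 0.199, edgeR). Abca7, a transporter that moves phospholipids across membranes, was the member with the smallest difference: 16.1 ± 1.7 CPM in APP/Tau mice (SD, n = 9) and 15.9 ± 1.5 CPM in controls (SD, n = 11). Its 95% interval, as percent change, ran from -7.76% to 10.6%.

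Naive and trained mice were also compared with their own controls. In naive mice none of the 7 genes passed, beside 0.202% of all genes. Bin1 came nearest, with a log2 fold change of 0.15 ± 0.05 (adjusted p = 0.136, edgeR). DESeq2 called Bin1 (adjusted p = 0.0442), but it also called more of all genes in this effect than edgeR did. In trained mice Rin3 alone rose, by 0.87 ± 0.20 on the log2 scale or 82.8% (adjusted p = 0.0205, edgeR), beside 2.65% of all genes that rose (2.80% in either direction). It averaged 4.51 ± 1.46 CPM in trained APP/Tau mice (SD, n = 4) and 2.47 ± 0.28 CPM in trained controls (SD, n = 6). All 4 APP/Tau values were above the highest trained control of 2.95 CPM, but the share of all genes that separate these small groups was not counted. In naive mice the Rin3 difference was 0.19 ± 0.20 (adjusted p = 0.677). The interaction between genotype and training for Rin3, 0.68 ± 0.28, did not pass after adjustment over all genes (adjusted p = 0.984, edgeR), beside 3.90% of genes below an unadjusted p of 0.05 and 0% past the threshold, so a difference between the 2 effects was not shown. The call in trained mice was lost without the microglia-rich libraries (0.40 ± 0.16, adjusted p = 0.857), without the 18S-rich libraries (0.88 ± 0.22, adjusted p = 0.0579), with limma-voom (0.84 ± 0.20, adjusted p = 0.0555), and when any 1 of 4 libraries was left out. Without APP/Tau trained 1 or trained 3 the log2 fold change was 0.77 (adjusted p = 0.171) or 0.71 (adjusted p = 0.147), and without control trained 2 or trained 6 it was 0.85 in both fits (adjusted p = 0.0522 and 0.0523).

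In the BLA none of the 7 genes passed the averaged genotype test, beside 1.18% of all 23168 genes tested there (0.997% higher and 0.181% lower). At an unadjusted p below 0.05 there were 2, Fermt2 and Cd2ap, beside 4399 of the 23168 genes. DESeq2 called 1, Fermt2 (adjusted p = 0.0384), beside 1191 of all genes that it called in this effect, against 273 with edgeR. Fermt2 had 76.0, 72.9, 77.8 and 73.5 CPM in trained and 59.3, 73.7, 72.3, 70.9 and 71.3 CPM in naive APP/Tau mice, against 72.8, 67, 66.0, 64.7 and 64.1 CPM in trained and 54.1, 62.7, 62.9, 65.8 and 65.1 CPM in naive controls. In 8 of 9 APP/Tau libraries it was above the control median, and 5 were above every control; the exception, naive 1, was the lowest of its group. The log2 fold change was 0.16 ± 0.05 (adjusted p = 0.0900, edgeR), or 12.0%, with a 95% interval from 0.07 to 0.26 on the log2 scale. The 2 highest Fermt2 values, 77.8 CPM in APP/Tau trained 3 and 76.0 CPM in trained 1, were in the 2 BLA libraries with the highest astrocyte marker sums, 6302 and 6742 CPM. Astrocyte sums ranged from 3642 to 6742 CPM in BLA APP/Tau libraries (median 4168 CPM) and from 3225 to 4184 CPM in controls (median 3724 CPM), and their part in the difference was not tested. The log2 fold change of Fermt2 was 0.16 ± 0.05 without the microglia-rich library and 0.16 ± 0.06 without the striatum-rich ones. No member was without overlap between all APP/Tau and all control libraries of the BLA, beside 0.0388% of genes separated upward and 0.0259% downward.

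**Figure D2:**
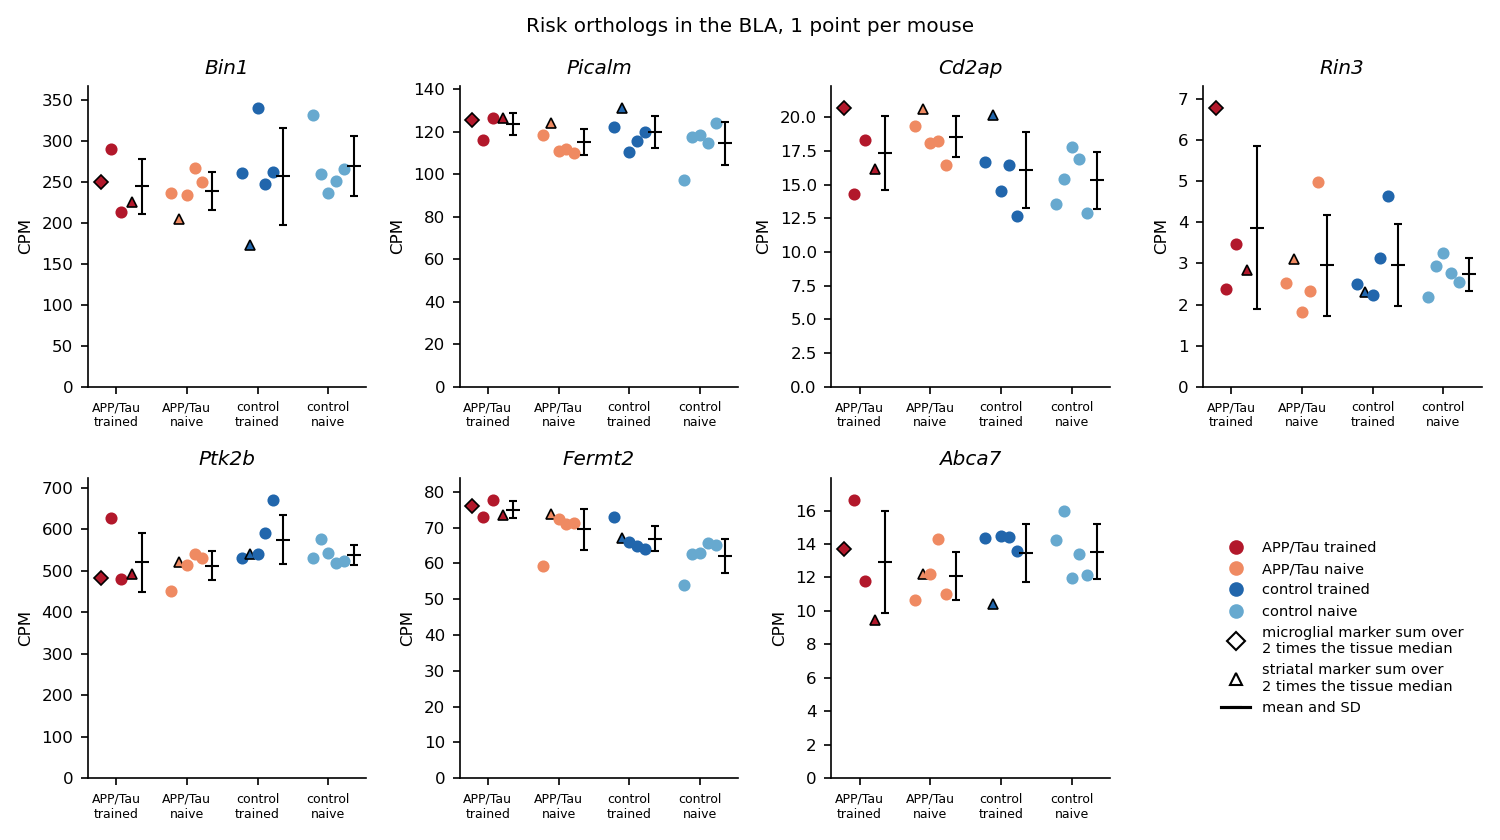
Level of each of the 7 genes in the BLA, in CPM on a linear axis from 0, with 1 point per mouse; black bars give the mean and SD of each group of 4 or 5 mice, the diamond marks the library with over 2 times the median microglial marker sum and triangles those with over 2 times the median striatal marker sum. Fermt2 is higher in most APP/Tau libraries, Rin3 is highest at 6.77 CPM in the microglia-rich library, and Bin1 is lowest at 173 CPM in a striatum-rich control.

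Among the endocytic genes of the BLA, Cd2ap averaged 18 ± 2.1 CPM in APP/Tau mice (SD, n = 9) and 15.7 ± 2.4 CPM in controls (SD, n = 10), a log2 fold change of 0.19 ± 0.09 (adjusted p = 0.255, edgeR). Rin3 had 6.77, 2.38, 3.48 and 2.85 CPM in trained and 2.53, 3.11, 1.81, 2.34 and 4.98 CPM in naive APP/Tau mice, and 2.51, 2.31, 2.22, 3.14 and 4.64 CPM in trained and 2.18, 2.93, 3.25, 2.78 and 2.55 CPM in naive controls. The highest Rin3 value was that of the microglia-rich library, but control trained 5, with a microglial sum of 470 CPM, was the third highest, and the log2 fold change of 0.25 ± 0.21 became 0.04 ± 0.19 without the microglia-rich library. Bin1 ran the other way, at 241 ± 26 CPM in APP/Tau mice (SD, n = 9) and 263 ± 47 CPM in controls (SD, n = 10), with a log2 fold change of -0.12 ± 0.10 (adjusted p = 0.540). Its 2 highest values, 339 CPM in control trained 3 and 331 CPM in control naive 1, stood in libraries with striatal sums of 679 and 663 CPM, and its lowest ones, 173 and 205 CPM in control trained 2 and APP/Tau naive 2, in libraries with striatal sums of 4569 and 5325 CPM. With the mean log2 level of the striatal markers as a covariate the difference of Bin1 was 0.03 ± 0.07. With that of the microglial markers it was 0.03 ± 0.13. The part of striatal tissue or of microglia in the Bin1 difference was not tested. Picalm differed by 0.03 ± 0.05, Ptk2b by -0.11 ± 0.06 and Abca7 by -0.11 ± 0.10 on the log2 scale. In naive and in trained mice taken apart, none of the 7 passed either, beside 0.0388% and 0.0432% of all genes.

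**Figure D3:**
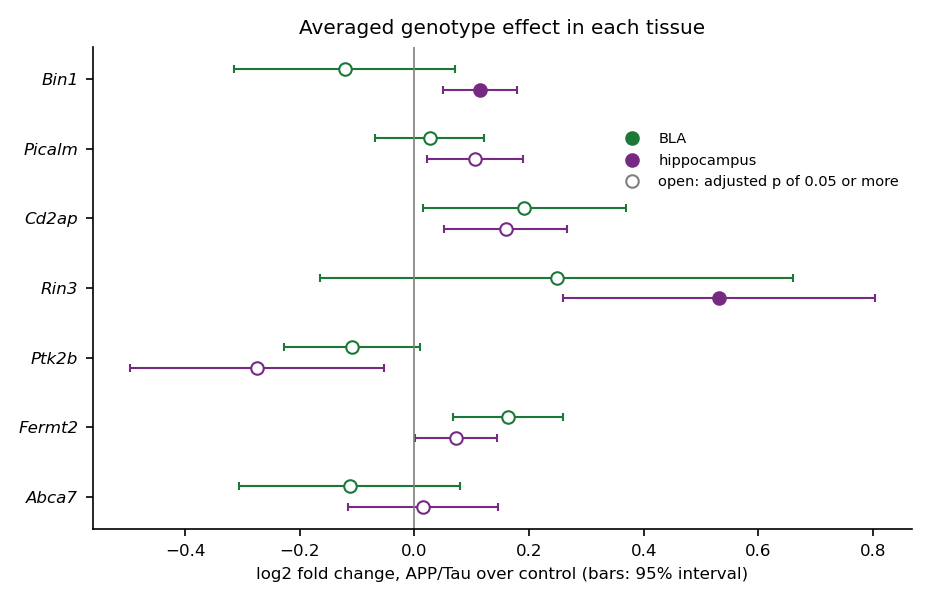
Averaged genotype effect of each gene as log2 fold change of APP/Tau over control, with 95% intervals, in the BLA (upper of each pair, n = 9 APP/Tau and 10 control mice) and the hippocampus (lower, n = 9 and 11); filled points passed at adjusted p < 0.05. Only hippocampal Rin3 and Bin1 are filled, and Bin1 has opposite signs in the 2 tissues, at -0.12 in the BLA and 0.12 in the hippocampus.

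Whether the genotype effect differed between the tissues was tested directly in a joint fit of all 39 libraries, which treats them as 39 independent mice although the labels do not say whether the tissues came from the same mice. None of the 7 passed, beside 0.0262% of all 26725 genes; 1 had an unadjusted p below 0.05, beside 8.34% of all genes. The difference for Bin1, BLA minus hippocampus, was -0.25 ± 0.10 on the log2 scale (adjusted p = 0.510, edgeR), that for Rin3 was -0.30 ± 0.26, and that for Ptk2b was 0.16 ± 0.13. The intervals remain wide for the variable genes: for Rin3 the tissue difference ran from -0.80 to 0.21 on the log2 scale. For Cd2ap the difference was 0.02 ± 0.11.

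Training 1 hour earlier, with tone and foot shock together, moved none of the 7 genes past the threshold, in either tissue or genotype. The same held for all genes: 0% passed in each of the 4 training effects and both interactions with genotype (edgeR). Below an unadjusted p of 0.05 were 5.85% of BLA genes in APP/Tau mice and 2.09% in controls, 4.59% of hippocampal genes in APP/Tau mice and 2.42% in controls, and 3.86% of BLA genes in the interaction. DESeq2 called 14 genes in BLA APP/Tau mice, 2 in BLA controls, 2 in hippocampal APP/Tau mice 0 in hippocampal controls, 3 in the hippocampal interaction and 0 in that of the BLA, and limma-voom 0 in each. None of the members had an unadjusted p below 0.05 in a training effect. In the hippocampus the largest training effects were those of Rin3, 0.39 ± 0.21 in APP/Tau mice and -0.29 ± 0.19 in controls on the log2 scale. In the BLA the largest was that of Rin3 in APP/Tau mice, 0.39 ± 0.31, against 0.11 ± 0.29 in controls. There, Fermt2 differed by 0.11 ± 0.07 in APP/Tau mice and by 0.11 ± 0.07 in controls. For Bin1, the gene with the smallest standard error in the hippocampus, the 95% intervals of the training effect ran from -0.13 to 0.06 in APP/Tau mice and from -0.05 to 0.13 in controls on the log2 scale. No difference of the training effect between the tissues passed for any of the 7, beside 0% of all genes past the threshold, 2.21% below an unadjusted p of 0.05 and 4 genes called by DESeq2.

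The clearest differences among these genes were between the tissues. Cd2ap, Ptk2b, Picalm, Abca7 and Fermt2 were lower in the BLA than in the hippocampus, so 5 of 7 were lower, beside 34.5% of all genes; no member was higher, beside 30.0% of all genes (64.5% in either direction). The median log2 difference of the 7 was -0.28, against -0.05 over all genes. Libraries of the BLA and hippocampus differ in RNA input, 10 ng against 50 ng, and in dissection, so tissue and preparation cannot be told apart.

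**Figure D4:**
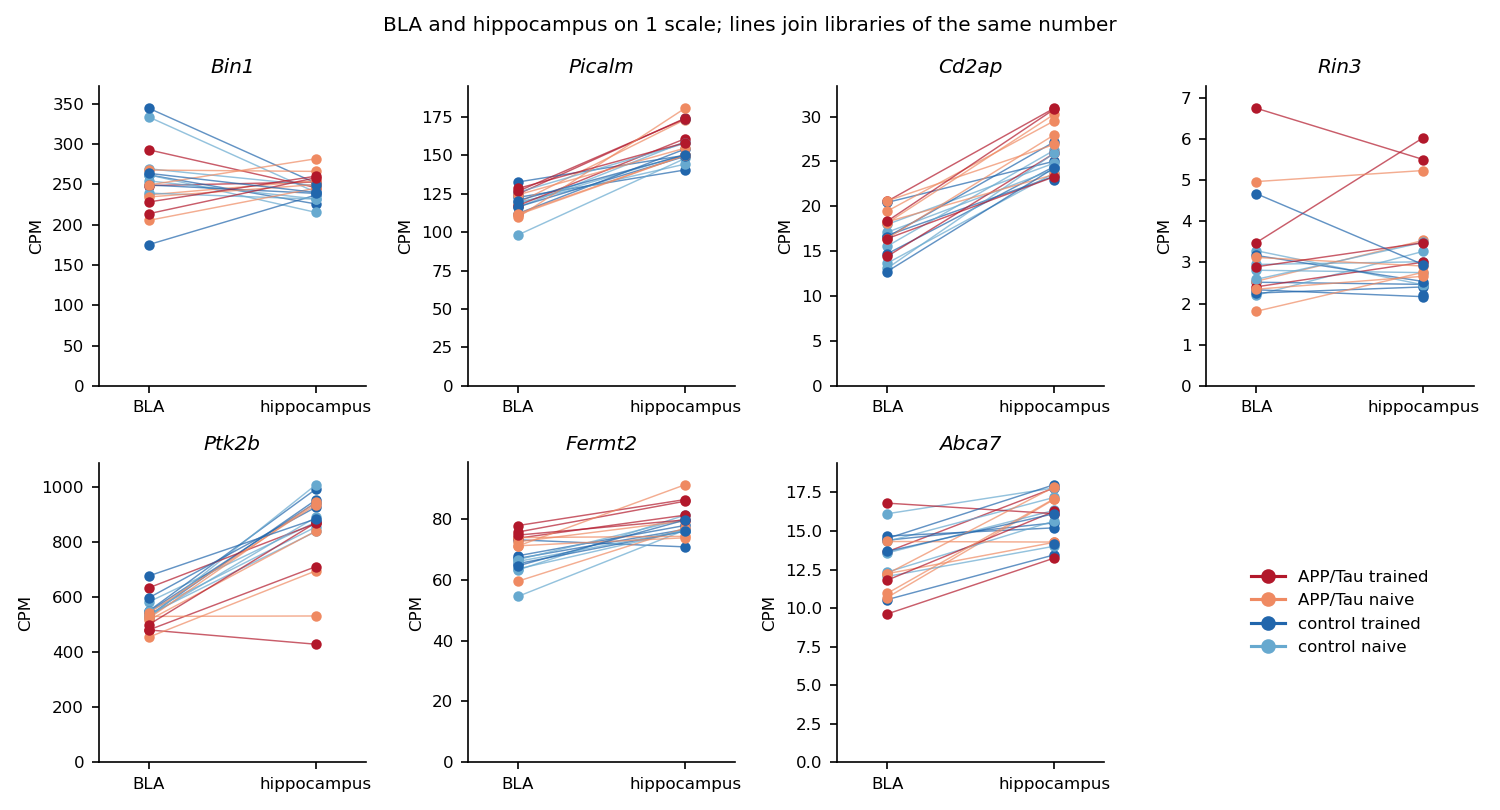
Level of each gene in CPM on the scale of the joint fit, with a linear axis from 0, in 19 BLA (left) and 20 hippocampal (right) libraries; lines join libraries that carry the same number in their names, coloured by group. Every line is lower on the BLA side for Cd2ap and Picalm, while lines of Bin1 and Rin3 run both ways.

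Cd2ap averaged 16.9 ± 2.5 CPM in the BLA (SD, n = 19) and 26.1 ± 2.6 CPM in the hippocampus (SD, n = 20), a log2 difference of -0.63 ± 0.05 (adjusted p = 7.07e-13, edgeR), or a change of -35.5%. The highest BLA library, at 20.6 CPM, was below the lowest hippocampal one, at 23.0 CPM. Picalm averaged 119 ± 8 CPM in the BLA (SD, n = 19) and 158 ± 11 CPM in the hippocampus (SD, n = 20), with no overlap either: the highest BLA library had 133 CPM and the lowest hippocampal one 140.4 CPM. Its log2 difference was -0.41 ± 0.03 (adjusted p = 1.16e-13, edgeR). For both genes the BLA library was the lower one in 19 of the 19 library numbers found in both tissues. The share of all genes without overlap between the tissues was not counted, and 64.5% of all genes passed the test between them.

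Ptk2b averaged 541 ± 53 CPM in the BLA (SD, n = 19) and 842 ± 147 CPM in the hippocampus (SD, n = 20), with a log2 difference of -0.62 ± 0.07 (adjusted p = 3.13e-10, edgeR). The tissues overlapped for Ptk2b through hippocampal APP/Tau trained 1 and naive 5, the 2 libraries with the lowest hippocampal neuron sums; the highest BLA library had 676 CPM and the lowest hippocampal one 428 CPM, and in 18 of 19 numbers the BLA was lower. Abca7 had 13.1 ± 1.9 CPM in the BLA (SD, n = 19) and 15.9 ± 1.6 CPM in the hippocampus (SD, n = 20), a log2 difference of -0.28 ± 0.06 (adjusted p = 8.75e-05), and Fermt2 had 68.5 ± 6.0 CPM in the BLA and 78.7 ± 4.8 CPM in the hippocampus, a log2 difference of -0.20 ± 0.03 (adjusted p = 2.95e-07, both edgeR). Bin1 and Rin3 did not pass: Bin1 averaged 254 ± 40 CPM in the BLA and 246 ± 15 CPM in the hippocampus, with a 95% interval of the log2 difference from -0.06 to 0.14, and Rin3 averaged 3.11 ± 1.18 CPM in the BLA and 3.24 ± 1.10 CPM in the hippocampus, from -0.31 to 0.19.

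The members were next set beside the marker sums of the cell types present. These relations over 19 or 20 libraries are descriptions, since the libraries of a tissue differ together in cell composition and depth.

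**Figure D5:**
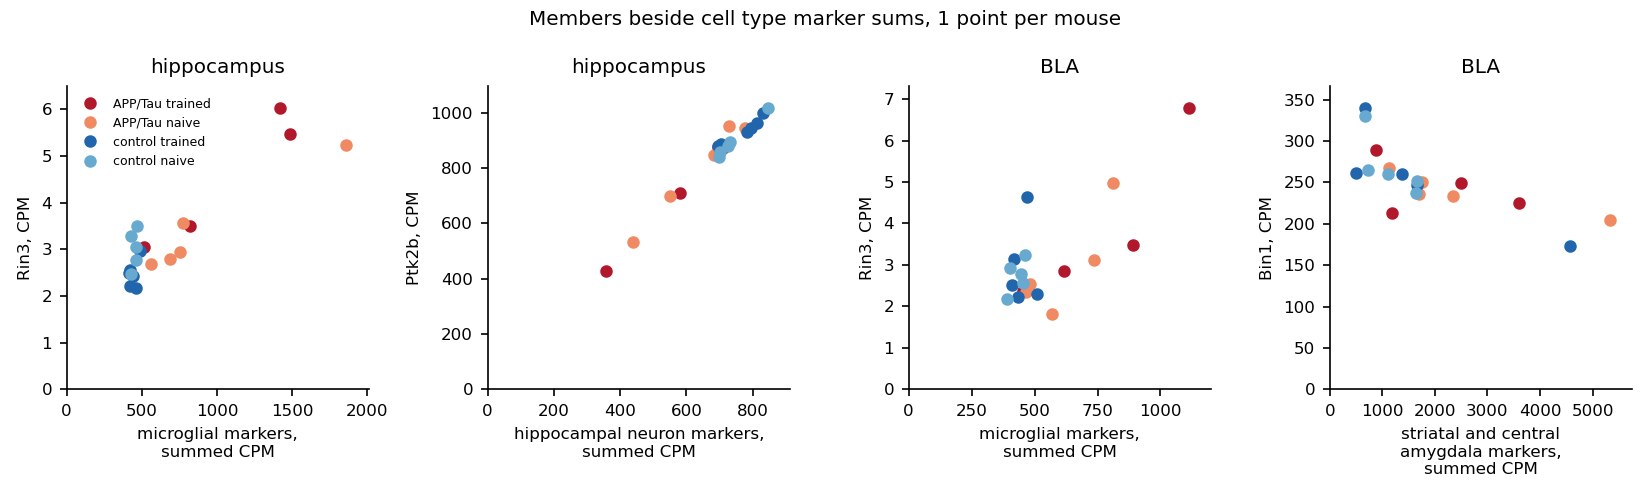
Level of a gene in CPM against the summed CPM of a marker list, both on linear axes from 0, with 1 point per mouse: hippocampal Rin3 against 14 microglial markers, hippocampal Ptk2b against 10 hippocampal neuron markers, BLA Rin3 against microglial markers and BLA Bin1 against 12 striatal and central amygdala markers. Rin3 is highest in the hippocampal libraries with microglial sums of 1417 to 1860 CPM, Ptk2b is lowest where the neuronal sum is 356 CPM, and Bin1 is at 173 to 225 CPM in the 3 BLA libraries with striatal sums of 3593 CPM or more.

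The genes whose levels deviated from their group means most like those of a member were found among genes of at least 1 CPM, with Pearson's r over 20 hippocampal or 19 BLA libraries. For hippocampal Ptk2b these were Lrrc10b, Gria1 (an AMPA receptor subunit), Rbfox1 (a neuronal splicing factor), Stim2 (a calcium sensor of the endoplasmic reticulum) and Prmt8, with r between 0.98 and 0.99. For hippocampal Rin3 they were Pcsk6, Acsf2, Fmnl3, Prkd3 and Lamb2 (r between 0.93 and 0.95). In the BLA, the 5 genes most like Rin3 were Slc11a1, Rasal3, Vav1, Lag3 and Adgre1 (r between 0.81 and 0.85). Slc11a1 and Adgre1, which encodes F4/80, are known from macrophages, and Vav1 from blood-derived cells. No gene was in both lists of Rin3, and no cell type is assigned here to its 5 hippocampal companions. Hippocampal Picalm was most like Ado, Nab1, Stam2 (an endosomal sorting protein), Xaf1 and Twf1 (an actin monomer binding protein), with r between 0.88 and 0.89. Hippocampal Fermt2 was most like Cmtm7, Gldc, Esam, Cldn10 and Gstm1 (r between 0.88 and 0.92). No cell type is assigned here to these 5 companions of Fermt2. Bin1 in the BLA was most like Atp6v0d1, Aprt, Neu1, Eid1 and Me1 (r between 0.94 and 0.95), of which Atp6v0d1, a subunit of the vesicular proton pump, and Neu1, a sialidase, act in lysosomes. In the hippocampus Bin1 was most like Gpm6b, Laptm4b, Slc35a4, Ptges3l and Sgk2, with lower r between 0.75 and 0.81. Abca7 and Cd2ap correlated with each other in the hippocampus at r = 0.67, and Rin3 with Ptk2b at r = -0.74. In the BLA the same pairs had r = -0.27 and r = 0.095.

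Close relatives of the members were set beside them. Of 15 relatives, 5 rose and 1 fell in the APP/Tau hippocampus (edgeR, adjusted p < 0.05), beside 7.27% of all genes that rose and 3.80% that fell, and their median log2 fold change was 0.06. Bin2, the amphiphysin relative of blood-derived cells and microglia, rose by 0.77 ± 0.14 on the log2 scale (adjusted p = 0.00201), whereas neuronal Amph had -0.12 ± 0.06 (adjusted p = 0.178). Bin2 had 10.2 ± 3.2 CPM in APP/Tau mice (SD, n = 9) and 5.98 ± 0.79 CPM in controls (SD, n = 11). Fermt3, the kindlin of blood-derived cells, rose by 0.96 ± 0.17 (adjusted p = 0.00170), while Fermt2 did not pass and Fermt1 had -0.14 ± 0.32. Bin3, the widely expressed relative of Bin1, had -0.03 ± 0.07.

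The RIN family was divided. Rinl and Rin2 rose with Rin3, by 0.59 ± 0.14 (adjusted p = 0.0130) and 0.33 ± 0.09 (adjusted p = 0.0184), and neuronal Rin1 fell by 0.32 ± 0.10 on the log2 scale (adjusted p = 0.0486, edgeR). Rin1 had 66.4 ± 14.5 CPM in APP/Tau mice (SD, n = 9) and 82.6 ± 6.9 CPM in controls (SD, n = 11). Among the transporters, Abca1, which loads cholesterol onto apolipoprotein E, rose by 1.10 ± 0.25 (adjusted p = 0.00868), while Abca2 had 0.06 ± 0.05 and Abca4 0.37 ± 0.25. Snap91, the neuronal homologue of Picalm, had -0.14 ± 0.06 (adjusted p = 0.125), Sh3kbp1, the homologue of Cd2ap, 0.17 ± 0.06 (adjusted p = 0.0648), and Ptk2, the focal adhesion kinase beside Ptk2b, -0.03 ± 0.04. The microglial marker sum was over 2 times the tissue median in 3 of these 9 APP/Tau libraries, and its part in the rise of Bin2, Fermt3, Rinl and Abca1 was not tested. In the BLA, Fermt3 alone of the 15 passed, with a rise of 0.74 ± 0.14 (adjusted p = 0.0169, edgeR). Of all genes there, 0.997% rose and 0.181% fell.

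The counts of the following lists in the averaged genotype effect stand beside 7.27% of all genes that rose and 3.80% that fell in the hippocampus, and 0.997% that rose and 0.181% that fell in the BLA. Of 36 genes of clathrin endocytosis, 2 rose and 4 fell in the APP/Tau hippocampus, with a median log2 fold change of -0.05. The list's smallest p-values were those of Pacsin1, a neuronal membrane-curving protein, which fell by 0.23 ± 0.05 on the log2 scale, Necap2, an AP2 and AP1 accessory factor, which rose by 0.54 ± 0.13, and the scaffold Itsn1 and the epsin Epn2, which fell by 0.19 ± 0.04 and 0.20 ± 0.05. Of 25 genes of the early endosome and RAB5, 2 rose and 2 fell: Pik3c3, the lipid kinase that makes PI3P, rose by 0.19 ± 0.05 and Rab5c by 0.13 ± 0.04, while the recycling ATPase Ehd1 fell by 0.34 ± 0.10 and the RAB5 effector Appl1 by 0.14 ± 0.04 (edgeR, adjusted p between 0.0249 and 0.0495). The median of this list was -0.01, and its calls are close in share to those of all genes. In the BLA, 1 of the 36 clathrin genes rose, Necap2 by 0.35 ± 0.07, and 0 of the 25 endosome genes passed.

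Of 36 genes of integrin adhesion, 10 rose and 1 fell in the APP/Tau hippocampus, beside the 7.27% and 3.80% of all genes, with a median of 0.11. The 4 with the smallest p were Itgb2 (log2 fold change 1.52 ± 0.24), Itga5 (1.06 ± 0.19), Itgam (0.93 ± 0.17) and Itgb5 (0.89 ± 0.17); Itgb2 and Itgam together form the leukocyte integrin Mac-1, and Itgam is also 1 of the 14 microglial markers. Of 16 genes of actin capping and CD2AP partners, 3 rose and 2 fell, beside the same shares: Was, an actin regulator of blood-derived cells, rose by 1.33 ± 0.26 and Synpo2 by 0.57 ± 0.16, while Synpo, of dendritic spines, fell by 0.35 ± 0.07 and Cbl by 0.17 ± 0.05. Of 13 lipid transport genes, 2 rose, again beside 7.27% of all genes, Apoe by 0.75 ± 0.19 and Abca9 by 0.68 ± 0.17. For these 3 lists the BLA had 1 call each, all higher, beside 0.997% of all genes: Itgb2 (0.86 ± 0.21), Was (0.97 ± 0.18) and Apoe (0.57 ± 0.13).

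Other Alzheimer risk orthologs, many of them genes of microglia, were set beside the 7. Of 25 tested genes in that list, 13 rose and 2 fell in the APP/Tau hippocampus, beside 7.27% and 3.80% of all genes, with a median log2 fold change of 0.35, against 0.11 for the 7 members. Trem2, a lipid receptor of microglia, rose by 1.85 ± 0.27 (adjusted p = 0.000484), with 30.5 ± 19.4 CPM in APP/Tau mice (SD, n = 9) and 8.50 ± 1.69 CPM in controls (SD, n = 11). Spi1, which encodes the myeloid factor PU.1, rose by 1.27 ± 0.20, the phosphatase gene Inpp5d by 0.91 ± 0.15 and progranulin, Grn, by 0.86 ± 0.15. In the BLA 5 of the 25 rose and 0 fell, beside 0.997% and 0.181% of all genes, with Trem2 at 1.20 ± 0.25 (adjusted p = 0.0254). These lists were described by counts and medians and were not tested as sets.

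Between the tissues, the endocytic lists went both ways: 19 of 36 clathrin genes were higher and 12 lower in the BLA than in the hippocampus, with a median log2 difference of 0.09, beside 30.0% of all genes that were higher and 34.5% that were lower. Of the actin capping and CD2AP partners 1 was higher and 12 of 16 lower in the BLA (median -0.39), and of the integrin adhesion genes 6 were higher and 19 of 36 lower (median -0.20). Among the relatives, Sh3kbp1 was higher in the BLA by 0.46 ± 0.04 and Snap91 by 0.28 ± 0.06 on the log2 scale, opposite in sign to Cd2ap and Picalm, whereas Ptk2 had -0.22 ± 0.04, the same sign as Ptk2b.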

How the data were processed

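Gene counts of poly(A) RNA from whole tissue lysate, whole numbers for 50559 genes in each table, were used as the authors deposited them; per the submitters' processing notes the build was mm39 and reads were trimmed with Trimmomatic 0.39, while aligner, counter, annotation and strandedness were not given in the sources used here. Even numbers made up 54.3% to 69.0% of counts between 1 and 20, so mates of a pair may have been counted apart in part of the reads; the cause was not tested. Each library is 1 mouse, and no pair of libraries agreed within sampling noise (smallest chi-square per gene 9.35).

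Each tissue was fitted with 4 group means, and both tissues together with 8, by edgeR 4.0.16 (R 4.3.3): filterByExpr with a minimum count of 10 and a minimum total of 15, TMM factors, quasi-likelihood F test, Benjamini-Hochberg adjustment over all genes of a comparison, threshold 0.05. Adjusted p-values are from edgeR unless another tool is named, a standard error was taken as |log2 fold change| divided by the root of the F statistic, and 95% intervals extend 1.96 standard errors to each side. There were 15 comparisons, 6 per tissue and 3 across tissues. CPM uses the TMM library sizes of its fit. Libraries of 50.3 to 128 M counts give the precision shown by the SDs and standard errors. The test was tried on simulated counts with known changes. Alternatives were DESeq2 1.42.0, limma-voom (limma 3.58.1), RLE factors, other low-count filters, marker covariates, replicate blocks, only the groups compared, and each library left out; leaving out libraries rich in microglial, 18S or striatal RNA was added after the data were seen.

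The members and lists were chosen with earlier results of these data known. All members and their relatives could be named, of each other list up to 4 called genes with the smallest p in the hippocampus and 2 in the BLA, and for each member the 5 genes of at least 1 CPM with the highest Pearson r. Promoter sequences are from RefSeq (GRCm38.p6), exon lengths from GENCODE; no gene coordinates of mm39 are given.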

Additional observations from a re-analysis of the deposited data

Results flagged for a closer look

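Of the 56 sets of 4 to 6 libraries (7 genes in 8 groups), 6 held a library far from the rest of its group by Dixon's test at the 95% level, where chance alone gives about 1 in 20; all 6 were in the BLA. In APP/Tau naive 1, Fermt2 was lowest at 59.3 CPM and Ptk2b lowest at 452 CPM. In APP/Tau trained 2, Picalm was lowest at 116 CPM and Ptk2b highest at 627 CPM. In control trained 2, a library rich in striatal markers, Abca7 was lowest at 10.4 CPM, and in control naive 1 Fermt2 was lowest at 54.1 CPM.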

How the results depend on the processing

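How many of the 7 genes passed in the averaged hippocampal genotype effect depended on the setting: 2 with edgeR as reported, 1 without a low-count filter, 1 without the 18S-rich libraries, 0 with the microglial covariate, 0 without the microglia-rich libraries, and 0 to 3 when 1 library was left out. In trained mice the 1 call became 0 with limma-voom, with the microglial covariate, without the microglia-rich libraries and without the 18S-rich ones, and 0 to 1 with 1 library left out. DESeq2 made 1 call in naive hippocampi (Bin1) and 1 in the averaged BLA effect (Fermt2), where edgeR made 0; that BLA count ran from 0 to 1 with 1 library left out. The 5 calls between the tissues held in every fit that left out 1 library. Among all genes, the averaged hippocampal effect passed for 2854 genes with edgeR, 4335 with DESeq2, 351 without the microglia-rich libraries and 18 with the microglial covariate; fewer samples or a covariate that differs between the genotypes enter the last 2. Without the 18S-rich libraries it passed for 1803. In the BLA the counts were 273, 1191, 45 and 11, with 64 by limma-voom and 28 with the striatal covariate. The trained hippocampal effect had 721 with edgeR, 1590 with DESeq2, 35 with limma-voom and 55 without the microglia-rich libraries, and the naive one 52, 744, 24 and 282 in the same order; without the 18S-rich libraries these effects had 227 and 21, the trained one 13 with the microglial covariate, and the naive one 83 with a floor of 1 CPM and 21 with only the groups compared. The naive and trained BLA effects had 9 and 10 with edgeR, 108 and 196 with DESeq2, and 27 and 6 with only the groups compared. The genotype difference between tissues had 7 with edgeR, 41 with DESeq2 and 4 with limma-voom. The other causes were not tested.

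Same-numbered samples did not pair: their deviations from group means correlated at a mean r of 0.069 in the hippocampus and -0.039 in the BLA (27 pairs each). With that number as a replicate block, 4 members passed in the averaged hippocampal effect, Picalm (0.13, adjusted p = 0.0347) and Ptk2b (-0.34, adjusted p = 0.0326) besides Rin3 and Bin1, and 4145 of all genes (1456 in trained hippocampi and 44 in the averaged BLA effect). The number in the library name correlated between tissues (mean r 0.295 over 19 pairs, lowest 0.034, 15 of 19 libraries most like their own number), and in all 19 the labels give the same genotype and training in both tissues, although they do not say that a number is 1 mouse. The joint fit takes the libraries as independent; with that number as a block the same 5 members passed between the tissues and 0 in the genotype difference between tissues, where 30 of all genes passed, against 7 without it.

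Signs that turned are given as log2 fold changes, and not all belonged to values near 0. In the averaged effects of the main fit, hippocampal Rin3 had 0.53, hippocampal Ptk2b -0.27 and BLA Rin3 0.25. In the averaged hippocampal effect the microglial covariate gave Abca7 -0.079, Fermt2 -0.055, Picalm -0.012, Ptk2b 0.19 and Rin3 -0.14, and leaving out the microglia-rich libraries gave Abca7 -0.050. In naive hippocampi the covariate gave Fermt2 -0.098, Picalm -0.017, Ptk2b 0.25 and Rin3 -0.42; leaving out the microglia-rich libraries gave Fermt2 -0.034 and Rin3 -0.011; Abca7 was 0.0012 with limma-voom and 0.012 without the 18S-rich libraries. In trained hippocampi the covariate gave Abca7 -0.065, Fermt2 -0.012, Picalm -0.0067 and Ptk2b 0.13, and Abca7 was -0.072 without the microglia-rich libraries. In the averaged BLA effect the microglial covariate gave Abca7 0.022, Bin1 0.032, Picalm -0.032 and Rin3 -0.43, and the striatal covariate Bin1 0.034 and Picalm -0.015. In naive BLA the striatal covariate gave Bin1 0.017 and Picalm -0.047, the microglial one Picalm -0.041 and Rin3 -0.45, and leaving out the striatum-rich libraries Picalm -0.021. In trained BLA the microglial covariate gave Abca7 0.096, Bin1 0.11, Cd2ap -0.077, Picalm -0.022 and Rin3 -0.41, the striatal one Bin1 0.051, and leaving out the microglia-rich library Rin3 -0.026.

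With 1 library left out, signs turned for Abca7 in the hippocampus (-0.010 to 0.061 averaged, -0.056 to 0.038 in naive and -0.016 to 0.13 in trained mice) and for naive hippocampal Fermt2 (-0.032 to 0.049) and Rin3 (-0.0093 to 0.27). In the BLA they turned for Picalm (-0.045 to 0.039) and Rin3 (-0.16 to 0.24) in naive mice and for Abca7 (-0.20 to 0.064), Bin1 (-0.18 to 0.052) and Rin3 (-0.026 to 0.60) in trained mice. The tissue difference of the Cd2ap genotype effect ran from -0.019 to 0.069.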

Other observations

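Other values between the members were Fermt2 with Rin3 in the hippocampus (Pearson's r = 0.63 over 20 libraries, after subtraction of group means) and, in the BLA, Bin1 with Picalm (r = -0.80), Bin1 with Cd2ap (r = -0.67) and Abca7 with Bin1 (r = 0.63 over 19 libraries), given as descriptions of libraries that share tissue composition. Fermt2 with Rin3 had r = 0.12 in the BLA. In the hippocampus Bin1 had r = 0.48 with Picalm, -0.24 with Cd2ap and -0.18 with Abca7. In the BLA, Picalm was most like Ttc9, Tet1, Plppr1, Gli3 and Asah2, Cd2ap was most like Tns1, Polm, Fnbp1, Rassf4 and Tctn1, and Ptk2b was most like Brinp2, Erc2, Senp3, Rasgrf2 and Cobl; Erc2 is a protein of the presynaptic active zone and Tns1 an adaptor of focal adhesions. Abca7 in the BLA was most like Map1s, Lamb1, Sorcs2, Ptk2 and Add1, with r between 0.84 and 0.87, so a relative of Ptk2b stood among the companions of Abca7.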
